A study of Mus musculus with 7 samples.

Results

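A list of 51 genes of the Z-disc, titin and its partners, and the M-band was examined in quadriceps muscle of a mouse model of spinal and bulbar muscular atrophy (SBMA). The genes were taken by symbol, with no measured value in the rule itself, but were chosen with earlier results of these data known. They were arranged into Z-disc scaffold, Z-disc periphery, thin filament, titin-linked, A-band and M-band, and actin-linked regulators. The A-band and actin-linked genes, such as Mybph, Abra and Smtnl2, are not Z-disc or M-band components in the strict sense. Of the 51 genes, 50 were measured above the filter on dim probes, out of 16577 genes tested. The remaining gene was Nebl, which encodes the cardiac protein nebulette; its probes were not well above background on any array.

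The sarcomere is built from interlocking lattices that meet at fixed structures. At the Z-disc, alpha-actinin crosslinks actin filaments from neighbouring sarcomeres, and a scaffold of PDZ-LIM proteins, calsarcins and small adaptors holds signalling enzymes there. Titin spans from the Z-disc to the M-band, binds stretch-responsive ankyrin repeat and LIM proteins along its elastic region, and is crosslinked by myomesins at the M-band, while capping and nucleating proteins set the length of the actin filament. Mutations in many of these genes cause nemaline, myofibrillar or limb girdle muscle disease.

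RNA of 4 WT mice and 3 AR113Q mice was hybridised to single-dye Agilent arrays, 1 mouse per array. All mice were on the C57BL/6 background and 3 months old. AR113Q mice carry a knocked-in, expanded CAG repeat, the kind of mutation that causes SBMA. The sample labels call the controls WT, whereas the text of the study describes a knock-in control line. The design text writes the mutant as AR113Q-NCD and does not expand the suffix. The share of the 39429 probes that stood well above background ranged from 47.6% to 55.8% per array, with 0 saturated spots. Correlations over the genes tested, each with its brightest probe, were 0.984 to 0.988 among WT arrays and 0.970 to 0.982 among AR113Q arrays. They were 0.911 to 0.944 between genotypes. All values below are quantile-normalized log2 signals, so that a difference of 1 is a doubling, and levels of different probes are set side by side only to choose the brightest probe of a gene or of a group for display. A gene was called higher or lower where limma gave an adjusted p of at most 0.05 over all genes and the log2 fold change was 1 or more in size. Labels do not state that arrays of a genotype came from separate litters. The p-values set the genotype difference against the spread within genotypes among these 7 mice, which limma moderates with that of all genes.

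More of the structural genes were called lower than higher in AR113Q muscle. There were 20 genes called lower and 5 called higher, together 25 of 50, against 24.3% of all genes tested by the same rule. Of all genes, 13.1% were called lower and 11.2% higher. The median log2 fold change was -0.74 over the 50 genes and -0.01 over all genes, with 36 of the 50 below 0. Without the fold threshold, 32 of the 50 had an adjusted p of at most 0.05, against 43.6% of all genes, and 26 of these 32 were lower. The genotypes did not overlap for 30 of the 50, against 49.3% of all genes. The list was chosen with earlier results of these data known, so these contrasts with all genes are descriptions and not tests. In whole muscle, fewer cells of a type and less RNA per cell cannot be told apart.

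**Figure D1:**
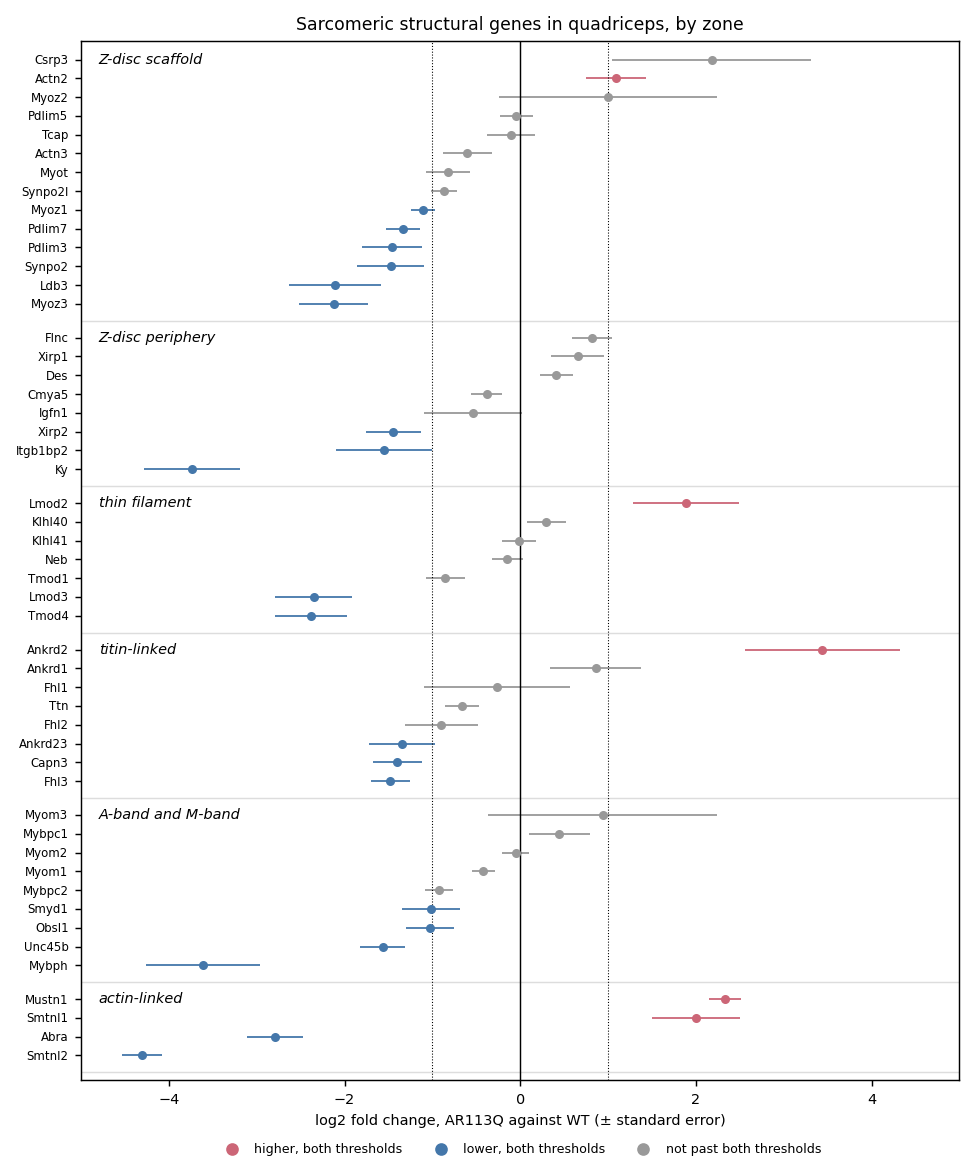
Log2 fold change of AR113Q against WT (horizontal axis, ± standard error from limma) for 50 structural genes grouped by zone. Blue points are the 20 genes called lower, red points the 5 called higher, and dotted lines mark a log2 fold change of 1 in either direction.

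The calls were spread over the zones. Lower genes were 6 of 14 in the Z-disc scaffold, 3 of 8 in the Z-disc periphery, 2 of 7 measured in the thin filament, 3 of 8 in the titin-linked group, 4 of 9 in the A-band and M-band and 2 of 4 among the actin-linked regulators. Median log2 fold changes were -0.85, -0.46, -0.15, -0.78, -0.92 and -0.40 in the same order. The actin-linked group was the only one in which every gene was called, and it was evenly divided between directions.

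Within the Z-disc scaffold, 6 genes were called lower. Myoz3 encodes calsarcin-3, which links alpha-actinin, filamin C and calcineurin in fast fibres. Its log2 signal was 11.26, 11.48, 11.32 and 11.25 on the WT arrays and 8.10, 9.97 and 9.54 on the AR113Q arrays. The WT mice lay close together and above all 3 AR113Q mice, and the difference was -2.13 (SE 0.40, limma adjusted p = 0.00374), or 4.36-fold. Its second probe also fell, by 1.63 on the log2 scale. Myoz1 encodes calsarcin-2, likewise a protein of fast fibres. It read 16.67, 16.51, 16.49 and 16.65 in WT mice and 15.40, 15.52 and 15.48 in AR113Q mice. Here the AR113Q mice were as tightly grouped as the WT mice, at a difference of -1.11 (SE 0.14, adjusted p = 0.000656).

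The PDZ-LIM proteins bind alpha-actinin through their PDZ domain and recruit kinases through their LIM domains. Ldb3, also known as Cypher or ZASP, had log2 signals of 15.14, 15.13, 15.31 and 15.48 in WT and 11.78, 13.24 and 14.42 in AR113Q mice. All AR113Q mice were lower, but they were widely spread, and the difference of -2.11 had an SE of 0.52 (adjusted p = 0.0128). The second Ldb3 probe gave -1.43 and missed the threshold, at an adjusted p of 0.0501. The first probe gave -1.46 without AR113Q mouse 1 and -2.74 without AR113Q mouse 3. Pdlim3 read 14.26, 14.24, 14.11 and 14.66 in WT and 11.93, 13.33 and 13.30 in AR113Q mice, a difference of -1.46 (SE 0.35, adjusted p = 0.0106). Pdlim7 read 13.23, 12.95, 13.24 and 13.63 against 11.77, 11.89 and 12.12, a difference of -1.33 (SE 0.19, adjusted p = 0.00132), and its 2 other probes gave -2.02 and -1.89. In the same family, Pdlim5 differed by -0.05 (SE 0.19, adjusted p = 0.861), with log2 signals of 13.63, 13.62, 13.68 and 14.20 in WT and 13.69, 13.64 and 13.88 in AR113Q mice. Its 3 probes disagreed in sign, at -0.05, 0.03 and 0.37, none of them called.

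Synpo2, or myopodin, an actin-bundling protein of the Z-disc, read 9.33, 8.84, 9.13 and 9.20 in WT and 6.85, 7.43 and 8.66 in AR113Q mice. The difference was -1.48 (SE 0.39, adjusted p = 0.0161) on its brightest probe, whereas the 2 other probes gave -0.11 and -0.92 and were not called, and it was -0.89 in the authors' normalized values. Its relative Synpo2l fell by 0.87 on the log2 scale (adjusted p = 0.00246) and Myot, which encodes the alpha-actinin and filamin binding protein myotilin, by 0.82 (adjusted p = 0.0271), both without overlap and both under the fold threshold.

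The alpha-actinin genes were not called in one direction. Actn2, the form present in all fibre types, read 12.88, 12.71 and 12.21 on 3 WT arrays and 13.21, 13.46 and 14.40 on the AR113Q arrays. The spot on the array of WT mouse 1 was marked as an outlier and left out, so that its fit used 6 arrays. The difference was 1.09 (SE 0.34, adjusted p = 0.0373). A dim second probe gave -1.24 (adjusted p = 0.115), so the direction rested on 1 probe, and the call was lost when any 1 of WT mice 2, 3 and 4 and AR113Q mice 2 and 3 was left out. Actn3, the fast fibre form, read 16.97, 16.84, 16.91 and 17.04 against 16.75, 16.66 and 15.59. The genotypes did not overlap, but 1 mouse carried most of the difference of -0.60 and it did not pass (adjusted p = 0.114). With scaling to the 75th percentile in place of quantile normalization, Actn3 was called lower at -1.05 (adjusted p = 0.00477). Tcap, the cap of the titin N-terminus and the brightest gene of the scaffold, read 17.06, 17.50, 17.36 and 16.93 against 16.49, 17.46 and 17.37, with a difference of -0.11 (SE 0.27, adjusted p = 0.774) that was -0.63 (adjusted p = 0.108) with that scaling.

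At the Z-disc periphery one of the genes called lower was Ky, which encodes the kyphoscoliosis peptidase, a partner of filamin C whose loss causes a muscle disease in mice. Ky read 7.33, 7.39, 7.997 and 7.03 in WT and 2.19, 4.54 and 4.37 in AR113Q mice. Every AR113Q mouse was more than 2 log2 units under every WT mouse, a difference of -3.74 (SE 0.55, adjusted p = 0.00132), or 13.3-fold. The probe was dim, being well above background on 2 of 3 AR113Q arrays, and in the authors' normalized values the difference was -0.81 (adjusted p = 0.0024). It was -2.92 without AR113Q mouse 1 and -1.27 with normexp background correction, so that the size of the decrease, and its rank in the group, depended on the treatment of the background. Xirp2, an actin-binding repeat protein of the Z-disc edge, read 11.83, 11.56, 11.32 and 11.15 against 9.38, 9.99 and 10.69, a difference of -1.45 (SE 0.31, adjusted p = 0.00692). Itgb1bp2, or melusin, an integrin-binding chaperone, read 12.41, 12.26, 12.63 and 12.55 against 9.53, 10.87 and 12.32. AR113Q mouse 3 overlapped the WT range, the difference of -1.55 had an SE of 0.55 (adjusted p = 0.0498), and it was -0.87 (adjusted p = 0.116) without AR113Q mouse 1 and -2.26 without mouse 3.

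Filamin C itself was not lower. Flnc read 13.22, 13.91, 13.48 and 13.90 in WT and 14.68, 14.12 and 14.52 in AR113Q mice. All AR113Q mice were above all WT mice, with a difference of 0.81 (SE 0.23, adjusted p = 0.0219) that stayed under the fold threshold. Xirp1, a filamin C partner at sites of fibre damage, differed by 0.65 (adjusted p = 0.111), and Des, the intermediate filament desmin, by 0.41 (adjusted p = 0.113). Cmya5, or myospryn, the brightest gene of the group, read 14.11, 14.25, 14.23 and 14.45 against 13.77, 14.19 and 13.69, a difference of -0.38 (adjusted p = 0.116). Igfn1, a partner of Ky, differed by -0.54 (adjusted p = 0.463) with overlapping genotypes.

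In the thin filament, transcripts of 2 genes for pointed-end proteins fell. Tmod4, the skeletal muscle tropomodulin that caps the pointed end of actin, read 16.00, 15.80, 15.92 and 15.78 in WT and 12.32, 14.07 and 14.08 in AR113Q mice. The difference was -2.38 (SE 0.41, adjusted p = 0.00253), or 5.22-fold. Lmod3, a leiomodin that nucleates and elongates actin filaments and is mutated in nemaline myopathy, read 13.04, 13.61, 13.98 and 13.14 against 10.22, 10.91 and 12.13, a difference of -2.35 (SE 0.44, adjusted p = 0.00364). For both genes the AR113Q mice lay below all WT mice. Tmod1, the more widely expressed tropomodulin, fell by 0.85 on the log2 scale (adjusted p = 0.0150).

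Lmod2, the leiomodin of heart muscle, was called higher by 1.89 (SE 0.60, adjusted p = 0.0348), from 2.90, 5.07, 4.09 and 2.68 in WT to 4.94, 5.38 and 6.40 in AR113Q mice. These were very low signals, well above background on 2 of 4 WT arrays, and the genotypes overlapped. Between the WT and the AR113Q mouse that shared a slide the difference was -0.13, and with normexp background correction it was 0.51 and no longer called. The giant ruler protein of the thin filament, nebulin (Neb), differed by -0.15 (adjusted p = 0.524), and the kelch proteins that stabilise nebulin and Lmod3 differed by 0.30 for Klhl40 (adjusted p = 0.314) and -0.01 for Klhl41 (adjusted p = 0.960). These are RNA values, and whether Klhl40 had a part in the fall of Lmod3 was not tested.

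**Figure D2:**
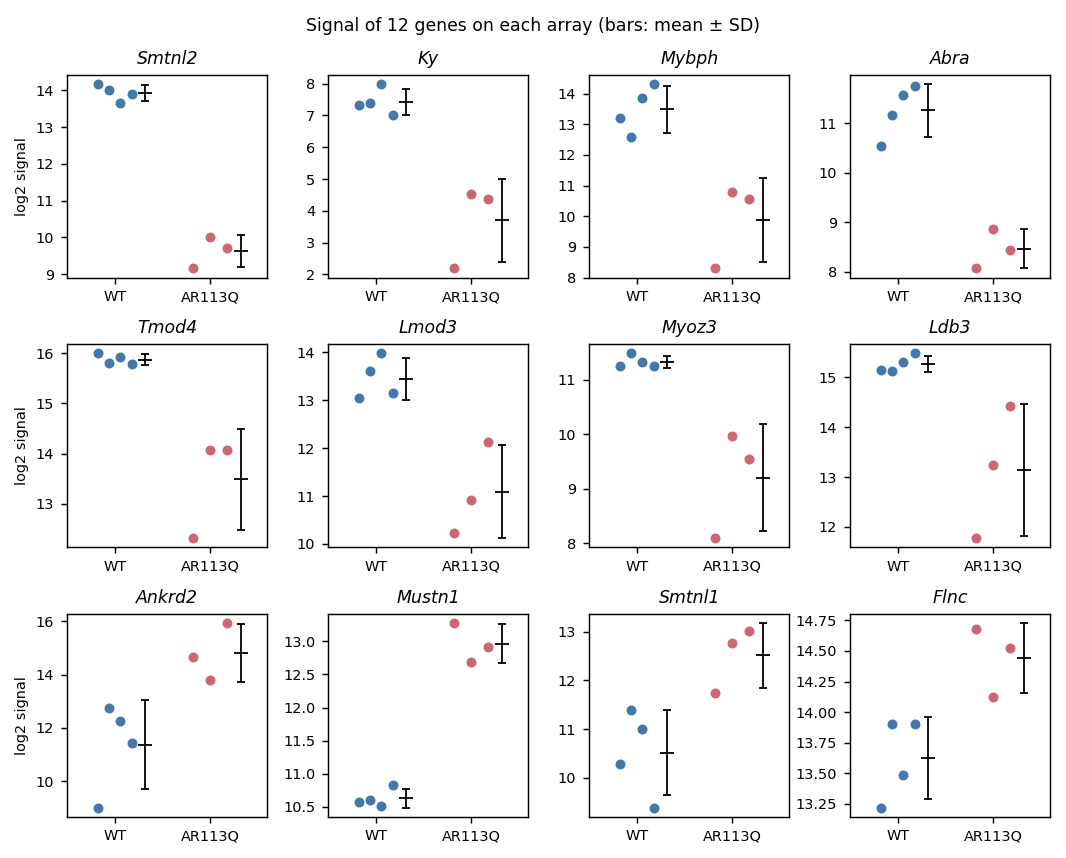
Log2 signal on each of the 4 WT arrays (blue) and 3 AR113Q arrays (red) for 12 genes, with the mean and SD of each genotype as a black bar. For Smtnl2 and Mustn1 the gap between genotypes is wider than the range within either, whereas for Ldb3, Ankrd2 and Smtnl1 it is narrower than the range of the AR113Q mice.

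The titin-linked group held the largest increase. Ankrd2, a muscle ankyrin repeat protein that binds the elastic N2A region of titin and is induced by stretch and in slow fibres, read 9.01, 12.76, 12.26 and 11.45 in WT and 14.67, 13.80 and 15.95 in AR113Q mice. The WT mice were widely spread, yet all lay below the AR113Q mice, with a difference of 3.44 (SE 0.88, adjusted p = 0.0150), or 10.8-fold, that was 2.64 without WT mouse 1. Ankrd23, another member of the same ankyrin repeat family and the brightest gene of the group, went down. It read 16.03, 15.46, 15.85 and 16.16 in WT and 13.53, 14.99 and 15.07 in AR113Q mice, a difference of -1.35 (SE 0.38, adjusted p = 0.0214), and its second probe gave -1.45. The family's remaining member, Ankrd1, differed by 0.86 (adjusted p = 0.211).

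Capn3, the titin-bound calpain mutated in limb girdle muscular dystrophy, read 13.48, 13.20, 13.92 and 13.47 in WT and 11.49, 12.38 and 12.48 in AR113Q mice, a difference of -1.40 (SE 0.28, adjusted p = 0.00497). Its dimmer second probe fell by 0.84 on the log2 scale, under the fold threshold. Fhl3, a four-and-a-half LIM protein, read 8.06, 7.98, 7.76 and 7.89 against 5.92, 6.76 and 6.64, a difference of -1.48 (SE 0.22, adjusted p = 0.00143) that was -0.46 in the authors' normalized values. Titin itself fell by less than the fold threshold. Ttn read 14.62, 14.97, 14.93 and 15.10 in WT and 13.93, 14.54 and 14.24 in AR113Q mice. Its 3 probes above the filter gave -0.66, -0.69 and -0.70, with an adjusted p of 0.0264 for the brightest. Fhl2 differed by -0.90 (adjusted p = 0.114) and Fhl1 by -0.26 (adjusted p = 0.819). For Fhl2 the difference was -0.22 in the authors' normalized values and -0.34 with normexp. It was called lower without WT mouse 4 and with replicate number in the model.

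Among A-band and M-band genes, Mybph, which encodes a myosin-binding protein related to MyBP-C, read 13.21, 12.58, 13.87 and 14.32 in WT and 8.30, 10.81 and 10.55 in AR113Q mice. The difference was -3.61 (SE 0.64, adjusted p = 0.00305), or 12.2-fold, with no overlap, and it was -2.83 without AR113Q mouse 1. Unc45b, the chaperone that folds myosin heads, read 9.69, 9.24, 9.48 and 9.51 against 7.32, 8.06 and 8.36, a difference of -1.57 (SE 0.25, adjusted p = 0.00203). Smyd1, a muscle methyltransferase that acts with this chaperone in myosin assembly, read 10.28, 9.56, 10.28 and 9.96 against 8.31, 8.998 and 9.69. The genotypes overlapped for Smyd1, and its difference of -1.02 (SE 0.33, adjusted p = 0.0374) was near both thresholds and was -0.67 (adjusted p = 0.110) without AR113Q mouse 1. Its second probe was called at -1.50.

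Obsl1, an obscurin relative that joins titin to myomesin at the M-band, read 11.23, 11.11, 11.45 and 11.29 in WT and 9.55, 10.46 and 10.71 in AR113Q mice, a difference of -1.03 (SE 0.27, adjusted p = 0.0174). A dimmer probe of the same gene differed by 0.13 and was not called, and without AR113Q mouse 1 the difference was -0.67. None of the myomesins that form the M-band crosslinks was called. Myom2, the fast fibre myomesin and the brightest gene of this group, read 16.46, 16.34, 16.43 and 16.49 against 16.25, 16.63 and 16.26, a difference of -0.05 (SE 0.16, adjusted p = 0.806) that was -0.46 (adjusted p = 0.0552) with scaling to the 75th percentile. Myom1 fell by 0.42 on the log2 scale (adjusted p = 0.0358). Of the myosin-binding proteins C, the fast form Mybpc2 fell by 0.92 on the log2 scale (SE 0.16, adjusted p = 0.00246) without overlap and was called at -1.24 with that scaling, while the slow form Mybpc1 differed by 0.44 (adjusted p = 0.329).

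The actin-linked regulators contained the largest decrease of the whole list. Smtnl2, a smoothelin-like protein with a calponin homology domain, read 14.18, 14.00, 13.65 and 13.89 in WT and 9.15, 10.00 and 9.72 in AR113Q mice. The gap between the lowest WT and the highest AR113Q mouse was several times the range within either genotype, and the difference was -4.31 (SE 0.23, adjusted p = 5.03e-05), or 19.8-fold. Its absolute log2 fold change was at the 99.7th percentile of all genes tested. Smtnl1, its paralog and a target of cyclic nucleotide-dependent kinases, read 10.29, 11.39, 10.99 and 9.38 in WT and 11.75, 12.78 and 13.02 in AR113Q mice, a difference of 2.001 (SE 0.498, adjusted p = 0.0132). The paralogs were thus called in opposite directions.

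Abra, also known as STARS, an actin-binding protein that activates serum response factor signalling, read 10.54, 11.16, 11.57 and 11.75 in WT and 8.08, 8.87 and 8.43 in AR113Q mice. All AR113Q mice were below all WT mice, with a difference of -2.79 (SE 0.32, adjusted p = 0.000488), or 6.93-fold. Mustn1, a small protein of developing and regenerating muscle and skeleton, read 10.57, 10.61, 10.52 and 10.84 in WT and 13.28, 12.69 and 12.91 in AR113Q mice. Its WT values were nearly constant, and its difference of 2.33 (SE 0.18, adjusted p = 0.000134), or 5.02-fold, was the most precise of the 5 increases.

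The AR113Q mice did not contribute equally to the decreases. In 20 of the 20 genes called lower, AR113Q mouse 1 had the lowest signal, against 50.05% of the 2178 genes called lower among all genes. The median deviation from the WT mean over the 20 genes was -2.36 in AR113Q mouse 1, -1.45 in mouse 2 and -1.11 in mouse 3. Without AR113Q mouse 1, 17 genes were called lower: Itgb1bp2, Ankrd23 (-0.87), Obsl1 and Smyd1 were lost, and Mybpc2 was added at -1.01 (adjusted p = 0.00464). The same mouse also had the lowest mean deviation among the 7 arrays over the 10 markers of skeletal muscle fibres, -0.61 against -0.41 and -0.06 in the other AR113Q mice, and over the 6 fibroblast markers, -2.95 against -1.74 and -1.50. The array of AR113Q mouse 1 had the lowest share of probes well above background, 47.6%, against 55.8% and 53.1% in the other AR113Q mice. The part of these in the decreases was not tested. The spread among AR113Q mice exceeded that among WT mice for 37 of the 50 genes, or 74.0%, against 67.1% of all genes.

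**Figure D3:**
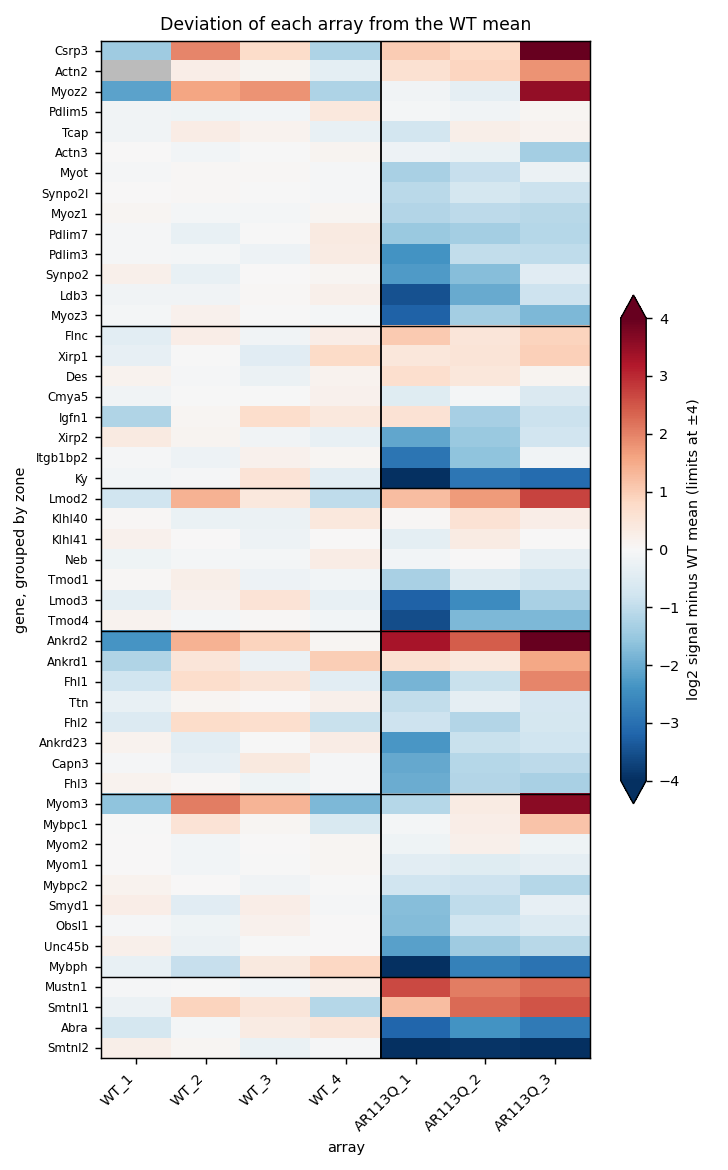
Deviation of the log2 signal of each array (columns) from the WT mean for 50 structural genes (rows, grouped by zone and ordered by fold change), with blue for lower, red for higher and grey for the outlier spot of Actn2. In AR113Q mouse 1 the blue is deepest, while in Csrp3, Myoz2 and Myom3 the columns of WT mice 2 and 3 and AR113Q mouse 3 are red.

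Several genes with no detected genotype difference varied strongly between mice of the same genotype. The quadriceps has regions rich in slow fibres, and the mean log2 signal of 6 slow fibre markers (Myh7, Tnnt1, Tnni1, Tnnc1, Myl2 and Myl3) was 6.39, 11.34, 11.17 and 6.61 in WT and 6.82, 6.29 and 12.72 in AR113Q mice. WT mice 2 and 3 and AR113Q mouse 3 were thus far above the other 4 mice, in either genotype. Csrp3, or muscle LIM protein, a Z-disc sensor enriched in slow fibres and heart, read 6.72, 10.10, 8.89 and 6.91 against 9.16, 8.95 and 12.89, and its difference of 2.18 had an SE of 1.13 (adjusted p = 0.155) and was 0.89 (adjusted p = 0.457) without AR113Q mouse 3. Myoz2, the calsarcin of slow fibres and heart, read 6.94, 10.68, 10.88 and 7.88 against 8.94, 8.73 and 12.61 (difference 0.997, SE 1.24, adjusted p = 0.543). Myom3, the myomesin of slow and intermediate fibres, read 6.10, 9.74, 9.04 and 5.89 against 6.56, 8.03 and 11.30 (difference 0.94, SE 1.30, adjusted p = 0.587).

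These 3 mice had the highest signals of Myoz2 and Myom3, whereas for Csrp3 AR113Q mice 1 and 2 were also above WT mouse 3. The order of the slow markers, with WT mice 2 and 3 above WT mice 1 and 4 and AR113Q mouse 3 above the other AR113Q mice, was found in 11 of 49 genes measured on all arrays (Ankrd2, Csrp3, Fhl1, Fhl2, Lmod2, Lmod3, Mybpc1, Myom3, Myot, Myoz2 and Smtnl1), or 22.4%, against 7.502% of all genes. With the slow marker level of each mouse as a covariate, chosen after the data were seen, Csrp3 differed by 2.34 (limma adjusted p = 0.000765) and Myoz2 by 1.17 (adjusted p = 0.00667), and both were called higher. Under that fit all 25 genes called before were called again, for 27 in all. What set the 3 mice apart was not tested. On the slide that held WT mouse 2 and AR113Q mouse 1, which were high and low in slow markers, the AR113Q value minus the WT value was -0.93 for Csrp3, -1.74 for Myoz2 and -3.17 for Myom3. The increases on that slide were 2.67 for Mustn1, 1.91 for Ankrd2, 0.36 for Smtnl1 and 0.33 for Actn2.

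**Figure D4:**
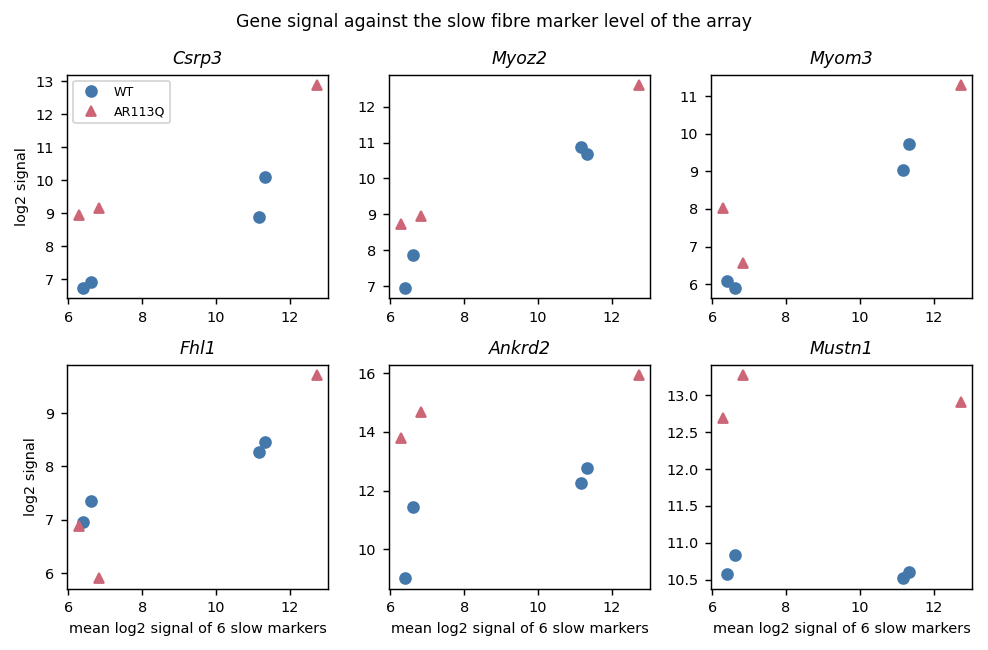
Log2 signal of 6 genes (vertical axes) against the mean log2 signal of 6 slow fibre markers (horizontal axis) on each array, with circles for WT and triangles for AR113Q mice. Csrp3, Myoz2, Myom3 and Fhl1 are highest in AR113Q mouse 3 at a marker level of 12.72, whereas Mustn1 separates by genotype at either end of the marker scale.

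Of the 50 genes, 15 were measured by more than 1 probe above the filter. Probes of 5 genes (Actn2, Ldb3, Synpo2, Capn3 and Obsl1) differed in whether they were called, and probes of 3 (Actn2, Pdlim5 and Obsl1) differed in sign. All other called genes with several probes, which were Myoz3, Pdlim7, Ankrd23, Fhl3 and Smyd1, were called in the same direction by each of them.

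**Figure D5:**
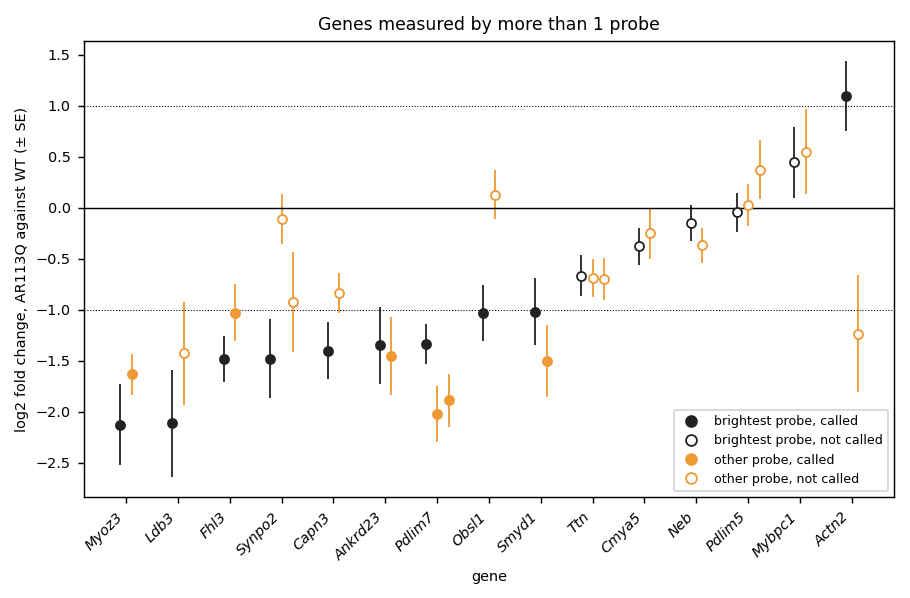
Log2 fold change of AR113Q against WT (± standard error) for each probe of the 15 genes with more than 1 probe above the filter. Black marks the brightest probe, which represents the gene, orange the others, and filled symbols the probes past both thresholds.

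The sequence before the start of each gene was searched for motifs that muscle regulators bind, in RefSeq promoter windows of 250 bases (GRCm38.p6). A window was given for 40 of the 51 genes, of which 15 were called lower and 5 higher. The MEF2 motif was found on either strand in 9 of the 40 genes (22.5%), against 3.42% of 27025 genes with a window, and the CArG box of serum response factor in 5 (12.5%), against 1.62%. The E-box CANNTG of myogenic factors was found in 32 (80.0%), against 69.3%, and the M-CAT element CATTCC in 9 (22.5%), against 14.4%. AGAACA, a steroid receptor half-site, was found in 6 (15.0%), against 18.2%. MEF2 was present in 3 of 15 lower genes, in 0 of 5 higher genes and in 6 of 19 genes that were not called. Matches are descriptions of the letters in these windows and not binding sites. Windows are shown for Smtnl2 and Mybph, whose decreases were among the deepest, for Xirp2 as a decrease with a MEF2 match, and for Ankrd2 and Smtnl1 as increased members of families that also held a decrease, with matches in capitals. They are Smtnl2 (chr11:72411714-72411963, minus strand), with M-CAT; Mybph (chr1:134193198-134193447, plus strand), with an E-box and an M-CAT; Xirp2 (chr2:67445752-67446001, plus strand), with overlapping E-boxes and a MEF2 motif; Ankrd2 (chr19:42035777-42036026, plus strand), with 3 E-boxes; and Smtnl1 (chr2:84822653-84822902, minus strand), with 2 E-boxes and a receptor half-site.
Smtnl2: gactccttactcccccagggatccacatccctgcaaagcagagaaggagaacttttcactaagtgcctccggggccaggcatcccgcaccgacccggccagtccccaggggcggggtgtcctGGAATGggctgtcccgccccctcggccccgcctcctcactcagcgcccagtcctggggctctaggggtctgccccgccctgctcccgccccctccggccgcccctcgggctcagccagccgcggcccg
Mybph: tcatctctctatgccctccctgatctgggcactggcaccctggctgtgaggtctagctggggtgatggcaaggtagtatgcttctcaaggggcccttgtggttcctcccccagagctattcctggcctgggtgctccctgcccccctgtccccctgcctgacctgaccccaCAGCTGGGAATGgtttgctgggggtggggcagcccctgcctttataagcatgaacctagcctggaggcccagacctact
Xirp2: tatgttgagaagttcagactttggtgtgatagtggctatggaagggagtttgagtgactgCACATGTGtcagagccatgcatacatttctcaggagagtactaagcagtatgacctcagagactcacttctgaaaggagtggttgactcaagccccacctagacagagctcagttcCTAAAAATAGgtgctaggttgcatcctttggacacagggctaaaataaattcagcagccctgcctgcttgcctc
Ankrd2: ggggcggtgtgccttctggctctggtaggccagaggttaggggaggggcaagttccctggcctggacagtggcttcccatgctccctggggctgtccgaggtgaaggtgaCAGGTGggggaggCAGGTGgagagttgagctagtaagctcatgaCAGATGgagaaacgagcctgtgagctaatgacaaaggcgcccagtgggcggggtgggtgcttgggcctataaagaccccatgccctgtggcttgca
Smtnl1: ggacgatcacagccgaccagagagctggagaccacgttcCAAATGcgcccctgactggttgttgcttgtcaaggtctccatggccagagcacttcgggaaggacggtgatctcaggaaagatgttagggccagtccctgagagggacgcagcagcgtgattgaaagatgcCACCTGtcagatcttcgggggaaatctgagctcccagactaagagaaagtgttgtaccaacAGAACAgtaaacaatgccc

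Outside the list, 26 further genes of the Z-disc, I-band and M-band had a median log2 fold change of -0.03, with 3 called higher and 6 lower, or 34.6%, against 24.3% of all genes. Hspb7, a small heat shock protein that binds filamin C, was the most raised. It read 8.48, 10.35, 10.07 and 10.02 in WT and 12.75, 12.21 and 13.20 in AR113Q mice, a difference of 2.99 (SE 0.45, adjusted p = 0.00152). Synm, or synemin, which ties desmin to the Z-disc, was the most lowered, from 13.15, 12.91, 12.86 and 13.05 to 10.92, 11.37 and 11.09, a difference of -1.87 (SE 0.17, adjusted p = 0.000202). The tissue label was checked against 10 markers of skeletal fibres, which were all well above background on every array, and 1 of them was called (Mylpf, -1.37). Markers of other cells moved as well. Fibroblast markers were lower in 4 of 6 (Col3a1, -4.62), while Pdgfra (-0.27, adjusted p = 0.425) and Dcn (0.41, adjusted p = 0.0692) were not called. Dcn was higher in AR113Q mice without overlap. Adipocyte markers were lower in 4 of 5 (Adipoq, -2.71), macrophage markers in 2 of 5 (Adgre1, -1.94) with 1 higher (Cd163, 1.18), and smooth muscle markers in 1 of 6 (Smtn, -1.61). One marker each was lower among 3 of satellite cells (Vcam1, -1.04) and 4 of heart muscle (Actc1, -2.20). The 3 other heart muscle markers, Myh6 (0.58), Tnnt2 (0.89) and Tnni3 (0.99), were above 0 and not called. Of 8 slow fibre markers 1 was higher (Atp2a2, 1.42), and 0 of 5 endothelial and 0 of 3 erythrocyte markers were called. Among 8 denervation and regeneration genes 3 were higher (Runx1, 5.62) and 0 lower. The part of these cells in the values above was not tested.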

How the data were processed

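The authors scanned the arrays and extracted spots with Agilent Feature Extraction 10.7.3.1, and the files they deposited give each spot's intensity after background subtraction, with no scaling across arrays. The authors also deposited log2 values that the methods describe as quantile normalized, which were used as an alternative. The number of arrays, 4 WT and 3 AR113Q, limits the precision.

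Here these intensities were taken to log2 and quantile normalized without outlier and control spots. Replicate spots were averaged for each probe, and a probe was kept where 3 or more of 7 arrays showed it well above background. The kept probe with the highest mean stood for its gene. Background subtraction spreads the log2 values of dim spots, and Ky and Lmod2 are such. Names came from RefSeq accessions (GRCm38.p6 table, names only) for 13024 of 16577 genes and otherwise from the files. The genome build of the array's probe positions is not given in the sources used here, and these positions are not reported.

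Genotypes were compared with limma 3.58.1 (lmFit and eBayes) in R 4.3.3 and Benjamini-Hochberg adjustment over all genes. The procedure was tested on simulated data. The 51 genes, their zones and all gene lists were chosen with earlier results of these data known. The 50 genes measured are each given with a log2 fold change, and Nebl without one. Values on each array are given for up to 4 called genes of each zone with the largest change, the brightest gene of each zone and genes whose probes disagreed. Values of further genes, among them all other called genes, Actn3, Flnc, Ttn and the slow-marker followers, were added after they were seen. Of the other lists, the most raised and most lowered called gene is named, and for fibroblasts and heart muscle the uncalled markers as well. Alternatives were other scalings, background corrections, filters, probe rules, slide or replicate number in the model, array weights and each array left out. The slow fibre covariate and the mean spot intensity were added after the data were seen. Some genes that were measured are not named or reported here.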

Additional observations from a re-analysis of the deposited data

Results flagged for a closer look

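Pdlim5, a PDZ-LIM protein of the Z-disc, had 1 WT array far from the other 3. WT mouse 4 read 14.20 on the log2 scale, against 13.63, 13.62 and 13.68 in WT mice 1, 2 and 3, by Dixon's test of the WT group. Chance flags about 1 in 20 groups, and the WT groups of 49 genes were examined, since Actn2 had 3 WT values. Without WT mouse 4 the log2 fold change of Pdlim5 was 0.093 in place of -0.05, and neither was called.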

How the results depend on the processing

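Slide as a fixed effect left 0 of the 50 genes called higher, 0 called lower and 0 at an adjusted p of at most 0.05 in limma, and the smallest adjusted p of any gene was 0.0523. At an unadjusted p of at most 0.05 there were then 29 of the 50 and 6200 of all genes. Only 1 of the 5 slides held both genotypes, so few degrees of freedom remained. That fit also turned the sign of Lmod2 (-0.13), Myoz2 (-1.74), Csrp3 (-0.93), Myom3 (-3.17), Mybpc1 (-0.62), Igfn1 (0.50) and Pdlim5 (0.073). Apart from it, 16 of the 25 called genes were called under every setting tried. Leaving out 1 mouse at a time gave 17 to 21 genes called lower and 3 to 5 called higher. With no filter on dim probes 3 were called higher. The authors' normalized values gave 14 lower and 4 higher, where 9.17% of all genes were called. The other settings kept the counts within 1.5 times.

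Scaling to the 75th percentile lowered the values of 4 bright genes: Actn3 (-1.05) and Mybpc2 (-1.24) became called, and Tcap (-0.63) and Myom2 (-0.46) did not. That scaling lost the calls of Itgb1bp2, Lmod2, Obsl1 (-0.93) and Smyd1 (-0.96), and Obsl1 and Smyd1 also lost theirs with normexp (-0.88 and -0.89) and with the authors' values (-0.87 and -0.86). Signs of genes near 0 changed without a call. Klhl41 was 0.081 with scaling to the 75th percentile, 0.051 with normexp, 0.052 with the authors' values, 0.050 with the mean spot intensity, 0.085 with array weights, and -0.18 to 0.17 over the arrays left out. Fhl1 was 0.078 with the authors' values and -1.37 to 0.53 over the arrays left out. Pdlim5 was 0.12 as a mean over probes, 0.093 with the replicate block and -0.12 to 0.093 over the arrays left out. Array weights gave 0.011 for Tcap and 0.032 for Myom2, which ranged from -0.29 to 0.22 and from -0.18 to 0.014. Myoz2 ranged from -0.26 to 1.68 and Myom3 from -0.39 to 1.95.

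Calls that rested on single mice were those of Itgb1bp2 (lost without any mouse other than AR113Q mouse 3), Smyd1 (without WT mice 1, 3 or 4 or AR113Q mice 1 or 2), Lmod2 (without WT mice 1 or 4 or AR113Q mice 2 or 3), Ankrd23 (without WT mice 1 or 4 or AR113Q mouse 1), Obsl1 (without WT mouse 3 or AR113Q mouse 1), Synpo2 (without AR113Q mouse 2) and Actn2. Leaving out 1 mouse also added calls. These were Myot (-1.11, without AR113Q mouse 3), Tmod1 (without AR113Q mouse 2), Fhl2 (without WT mouse 4) and Mybpc2 (without AR113Q mouse 1). With replicate number as a block, 18 genes were called lower, 4 higher and 26 passed the adjusted p. Deviations of same-numbered mice correlated over genes at 0.04, -0.02 and 0.16. WT mouse 2 and AR113Q mouse 1, which shared a slide, correlated at -0.11, so these values cannot show whether mice shared a factor. Whether same-numbered mice shared more than a number was not tested.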
